A study of Homo sapiens with 4 samples.

Results

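The pre-B receptor and its proximal kinases are 10 genes that were taken as a fixed list of names: VPREB1, VPREB3, IGLL1, CD79A, CD79B, BLNK, SYK, BTK, LYN and BLK. The list itself was chosen with earlier results of these data known. Every probe whose RefSeq accession belonged to one of these genes was used, without regard to its signal. This gave 12 probes of the 41000 on the array, and 10 of the 18199 genes that could be named. IGLL1 had 3 probes and the other 9 genes had 1 each. The probes of SYK and LYN were printed at 10 positions on each array and the other 10 probes at 1.

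The data came from 4 one-colour arrays of Nalm-6, a line of human leukemic pre-B cells. The groups were wild-type cells (WT), cells with the gene for Arp5 disrupted (Arp5 KO), cells labelled as an Arp8 knockout (Arp8 KO), and a culture whose label states Arp8 overexpression (Arp8 OE). Both proteins are actin-related subunits of the INO80 chromatin remodeling complex. Per the treatment protocol, heme at 20 uM was given to all of them for 12 hours to induce oxidative stress. The titles of all samples name heme too, as does the source field of Arp8 KO. Against this, the treatment field of both knockouts read no heme, and the source field of Arp5 KO spoke of culture without heme. The labels thus disagree on the treatment of the knockout cells, and genotype and treatment cannot be told apart in them. Both alleles were disrupted in Arp5 KO. The study describes loss of Arp8 as lethal in a conditional knockout, and the time between this loss and the RNA extraction is not given in the sources used here. How Arp8 was overexpressed is not given there either.

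Each group had 1 array, so there was no test between genotypes and no biological error. Values are log2 of the processed signal over the 75th percentile of the same array, called the log2 level, and differences are between 2 arrays for the same probe. The only error available was the technical SD of such a difference, taken over replicate spots on the array. For differences from WT it lay between 0.0316 and 0.0509 over the 10 member probes with a single spot, estimated from replicated probes of like level, and between 0.0211 and 0.0579 for SYK and LYN. This error covers the spots alone and says nothing of variation between cultures.

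Before a precursor B cell makes an immunoglobulin light chain, its heavy chain is displayed with a surrogate light chain, formed by the VpreB protein (VPREB1) and the lambda5 protein (IGLL1). The membrane proteins CD79A and CD79B carry the signal into the cell through tyrosine motifs in their tails. Src family kinases such as LYN and BLK phosphorylate these motifs, SYK then docks on them, and the adaptor BLNK brings BTK to the complex. The receptor is known for marking the checkpoint at which a productive heavy chain is recognised, and it is a hallmark of pre-B cells.

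The cell type was checked with the 7 pre-B cell markers that are not members, among them PAX5, EBF1, MME, RAG1, RAG2 and DNTT. All 7 were well above background on every array. Their summed linear level, in units of the 75th percentile, was 83.2 in WT, 110 in Arp8 OE, 96.7 in Arp5 KO and 108 in Arp8 KO, so that WT was the lowest. None of the 3 erythroid markers was well above background on more than 1 array, and of the 4 T cell markers with a probe only CD3E was, on Arp8 KO. The targeted genes were checked once. ACTR5, which encodes Arp5, had log2 levels of -0.13 in WT, -0.41 in Arp8 OE, -4.40 in Arp5 KO and -0.24 in Arp8 KO. The 2 ACTR8 probes, for Arp8, lay at -1.02 and 0.25 in WT, at -1.11 and 0.01 in Arp5 KO, at -1.55 and -0.44 in Arp8 KO, and at -1.01 and 0.23 in Arp8 OE. In Arp8 KO they were lower than WT by log2 differences of -0.53 and -0.68, and the array labelled Arp8 OE showed no more ACTR8 signal than WT. Where these probes lie relative to the disrupted part of the gene was not determined here, so they do not settle the Arp8 KO label. Arp8 KO and Arp8 OE are used below as the names of the cultures so labelled. HMOX1, the heme-degrading enzyme that heme induces, was lower than WT in all 3 other cultures, by -2.91 in Arp8 KO, -2.98 in Arp5 KO and -2.05 in Arp8 OE, and the part of heme exposure in the receptor values was not tested.

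In Arp8 KO, transcripts of the VpreB proteins, the CD79 chains and the kinases LYN and BLK were lower than in WT, by between 1.48-fold for CD79B and 5.24-fold for VPREB3. In Arp5 KO the same direction was seen for VPREB3, VPREB1, CD79A, CD79B and BLK, by smaller amounts. No BTK difference from WT was larger than 0.12 on the log2 scale, and no IGLL1 difference was larger than 0.34. BLNK was somewhat higher in both knockouts and lay within 0.05 of WT in Arp8 OE. SYK was lower in WT than in every other culture, and its rise was not confined to the knockouts. Arp8 OE, at 0.34 above WT, lay between Arp5 KO (0.22) and Arp8 KO (0.41) for SYK. In Arp8 OE no member differed from WT by more than 0.34 on the log2 scale. Since total RNA of a whole culture was measured, fewer cells with a transcript and less of it per cell cannot be told apart.

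**Figure D1:**
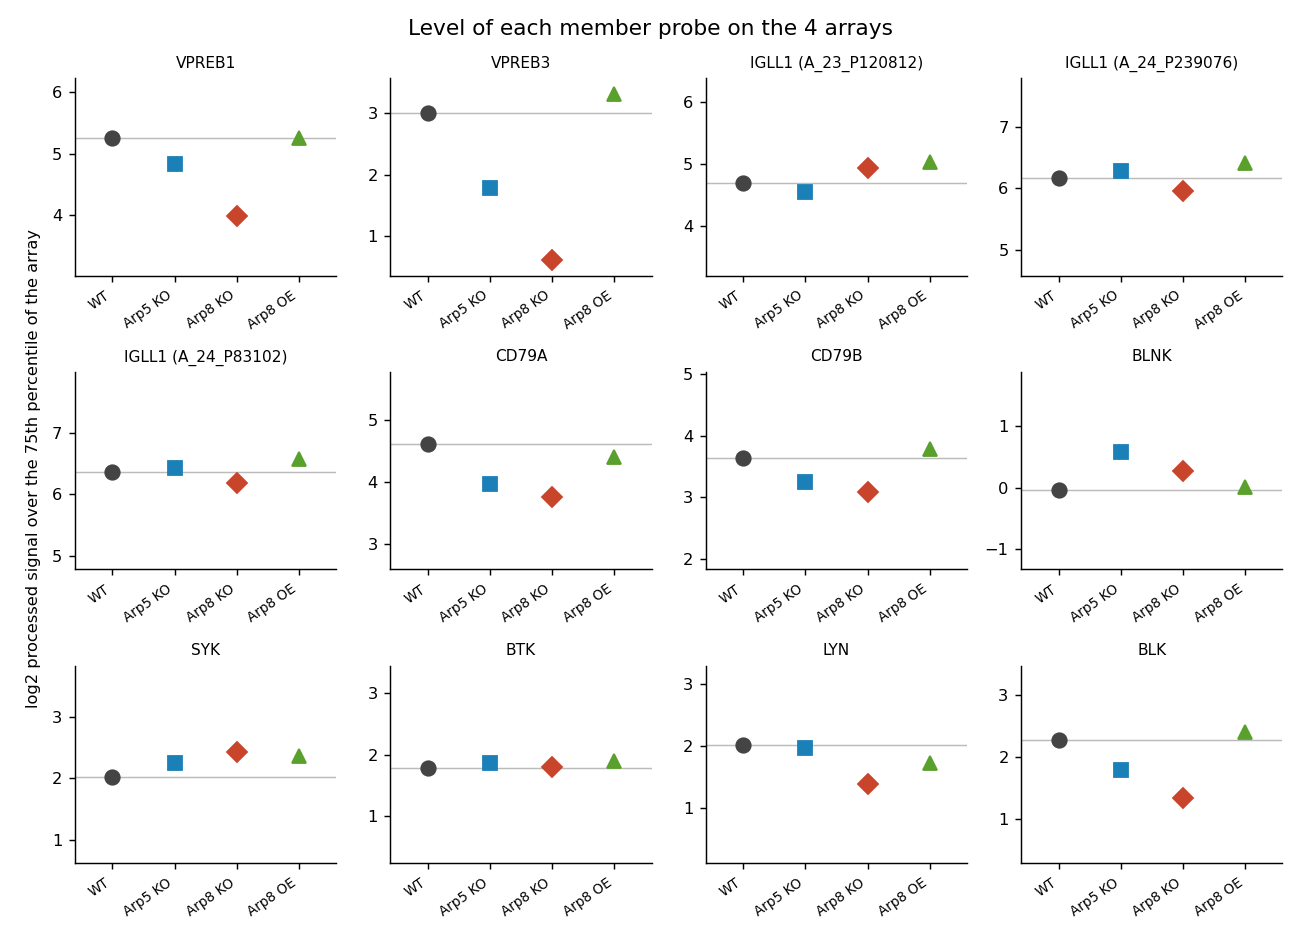
Log2 level of each of the 12 member probes (vertical axis, log2 processed signal over the 75th percentile of the array) on the 4 arrays, 1 point per array. Each panel has its own range of the same height, a grey line marks WT, and VPREB3 lies at 3.0 in WT and at 0.61 in Arp8 KO.

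The promoters of VPREB1, VPREB3, IGLL1 and CD79A are shown first, because VPREB3 and VPREB1 carried the differences past 2-fold. CD79A was lower in both knockouts as well, and IGLL1, which pairs with VPREB1, was past 2-fold on no array. Each sequence holds the 250 bases before the start site, 5′ to 3′ on the strand of the gene, from RefSeq in the build GRCh38.p14. VPREB1 lies at chr22:22244536-22244785 on the + strand, VPREB3 at chr22:23754426-23754675 on the - strand, IGLL1 at chr22:23580291-23580540 on the - strand, and CD79A at chr19:41877029-41877278 on the + strand. Capitals mark CAGGTG on either strand, an E-box of the kind bound by the E2A protein, and ATTTGCAT, the octamer of immunoglobulin promoters.
VPREB1: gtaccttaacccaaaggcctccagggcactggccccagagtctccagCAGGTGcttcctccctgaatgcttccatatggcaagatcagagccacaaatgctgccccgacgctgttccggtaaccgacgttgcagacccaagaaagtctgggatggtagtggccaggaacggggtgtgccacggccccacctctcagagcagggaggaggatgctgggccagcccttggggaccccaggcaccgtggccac
VPREB3: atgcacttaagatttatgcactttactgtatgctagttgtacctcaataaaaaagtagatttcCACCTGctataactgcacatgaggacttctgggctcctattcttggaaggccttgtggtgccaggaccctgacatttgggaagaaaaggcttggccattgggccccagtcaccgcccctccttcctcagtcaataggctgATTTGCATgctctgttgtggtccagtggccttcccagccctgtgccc
IGLL1: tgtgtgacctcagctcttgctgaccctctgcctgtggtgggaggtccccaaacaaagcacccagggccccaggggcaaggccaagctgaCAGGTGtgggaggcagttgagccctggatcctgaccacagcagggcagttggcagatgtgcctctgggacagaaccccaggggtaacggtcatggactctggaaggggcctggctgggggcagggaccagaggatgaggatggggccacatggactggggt
CD79A: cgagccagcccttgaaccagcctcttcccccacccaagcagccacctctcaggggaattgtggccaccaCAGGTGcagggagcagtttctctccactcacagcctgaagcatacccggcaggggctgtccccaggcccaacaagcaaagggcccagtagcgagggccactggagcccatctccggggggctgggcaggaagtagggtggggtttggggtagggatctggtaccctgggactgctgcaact

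The E-box began 203 bases before the start site in VPREB1, 187 in VPREB3, 161 in IGLL1 and 181 in CD79A, so it was present both in genes that were lower in the knockouts and in IGLL1. In total, 7 of the 10 members had promoters that were searched (10 windows, each of 250 bases before the start site and 50 after it). The promoters of CD79B, LYN and BLK, which were lower than WT in Arp8 KO, were not searched. CAGGTG was found in 6 of these genes, and in 17.5% of all 35116 promoter windows. Members are counted by gene here and the background by window. A gene with more than 1 window had more chances of a match, so the 2 are not directly comparable. The octamer was found in VPREB3 alone, 47 bases before the start site, and in 1.63% of all windows. GAGGAA, the core of a PU.1 or Spi-B site, was found in VPREB1, VPREB3, SYK and BTK, and in 23.6% of all windows. TGGGAA, an Ikaros core, was found in VPREB3 and SYK, and in 20.8% of all windows. Neither the EBF1 palindrome nor the Maf recognition element of the kind that BACH1 and NRF2 bind, each searched as 10 letters, was found in a window of a member, and they were found in 1.06% and 0.336% of all windows. The motifs were searched on both strands and were chosen after the sequences had been seen. CAGGTG can share its end letters with GAGGAA and TGGGAA. A match is a description of the letters and was not tied to binding in these cells.

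VPREB3 encodes a VpreB-like protein that associates with immunoglobulin chains inside precursor B cells. Its log2 level was 3.0 in WT, 3.31 in Arp8 OE, 1.79 in Arp5 KO and 0.61 in Arp8 KO. The values of both knockouts thus lay below those of both other cultures, with Arp8 KO the lowest. The difference from WT was -1.21 in Arp5 KO (2.32-fold lower, technical SD 0.0389) and -2.39 in Arp8 KO (5.24-fold lower, technical SD 0.0390). Of all probes tested, 1.55% lay lower in Arp5 KO and 0.74% lay lower in Arp8 KO. Against Arp8 OE in place of WT, the log2 difference of VPREB3 was -2.70 for Arp8 KO and -1.52 for Arp5 KO. Arp8 KO lay 1.18 below Arp5 KO on the log2 scale, a difference of -1.18 with a technical SD of 0.0464.

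VPREB1 encodes the VpreB protein of the surrogate light chain itself. Its log2 level was 5.25 in WT, 5.25 in Arp8 OE, 4.83 in Arp5 KO and 3.99 in Arp8 KO. WT and Arp8 OE were equal to the second decimal, and the knockouts followed in the same order as for VPREB3. The difference from WT was -1.26 in Arp8 KO (2.39-fold lower, technical SD 0.0373) and -0.42 in Arp5 KO (1.34-fold lower, technical SD 0.0377). The Arp8 KO difference was thus past 2-fold and the Arp5 KO difference was not, and the 2 knockouts differed from each other by -0.84 (technical SD 0.0376).

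IGLL1 encodes lambda5, the partner of VpreB. The first of its 3 probes (A_23_P120812) lay at 4.70 in WT, 5.03 in Arp8 OE, 4.55 in Arp5 KO and 4.94 in Arp8 KO. The second (A_24_P239076) lay at 6.17 in WT, 6.40 in Arp8 OE, 6.28 in Arp5 KO and 5.96 in Arp8 KO. The third (A_24_P83102) lay at 6.36 in WT, 6.57 in Arp8 OE, 6.43 in Arp5 KO and 6.19 in Arp8 KO. The probes disagreed in direction for both knockouts: in Arp8 KO the first was higher than WT by 0.24 while the others were at -0.21 and -0.18, and in Arp5 KO the first was at -0.15 and the others at 0.11 and 0.07. All 9 differences from WT lay between -0.21 and 0.34. IGLL1 resembles immunoglobulin lambda genes in sequence, and whether the probes also bind their transcripts was not tested. On chromosome 22 the start sites of IGLL1 and VPREB3 lie 174 kb apart on the same strand, and only VPREB3 of these neighbours was past 2-fold in a knockout.

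CD79A, the Igα chain, had log2 levels of 4.61 in WT, 4.41 in Arp8 OE, 3.97 in Arp5 KO and 3.75 in Arp8 KO. CD79A was lower than WT by 1.56-fold in Arp5 KO (log2 difference -0.65, technical SD 0.0402) and 1.81-fold in Arp8 KO (-0.86, technical SD 0.0373). In Arp8 OE it was at -0.20, so that this culture lay between WT and the knockouts. CD79B, the Igβ chain, lay at 3.64 in WT, 3.78 in Arp8 OE, 3.25 in Arp5 KO and 3.08 in Arp8 KO. The difference of CD79B from WT was -0.57 in Arp8 KO, -0.40 in Arp5 KO and 0.13 in Arp8 OE, and the knockouts were again the lowest arrays. Neither chain passed 2-fold. The CD79B spot was the only one of the single-spot members with an adjacent spot whose signal on 1 array was more than 2-fold that on every other array. That neighbour was bright on WT, and its part in the difference was not tested. Against Arp8 OE, which had no such neighbour, the difference of CD79B was -0.70 for Arp8 KO and -0.53 for Arp5 KO.

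The adaptor BLNK, which links SYK to BTK, went the other way. Its log2 level was -0.04 in WT, 0.01 in Arp8 OE, 0.58 in Arp5 KO and 0.27 in Arp8 KO. Arp5 KO was the highest array, 1.53-fold above WT (log2 difference 0.62, technical SD 0.0509), and Arp8 KO was 1.24-fold above WT (0.31, technical SD 0.0495). WT and Arp8 OE differed by 0.05, as much as the technical SD of 0.0500.

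SYK, the kinase that binds the phosphorylated CD79 tails, had median log2 levels over its spots of 2.0 in WT (range 1.96 to 2.13), 2.23 in Arp5 KO (2.17 to 2.37), 2.44 in Arp8 KO (2.37 to 2.46) and 2.35 in Arp8 OE (2.26 to 2.48). Its spots on WT did not overlap with those on any other array. How often this holds for other probes printed 10 times was not counted. Of the SYK spots, 40% had an adjacent spot bright on 1 array, and its part was not tested. The differences from WT were 0.22 in Arp5 KO (SD 0.0249 over 10 spots), 0.41 in Arp8 KO (SD 0.0579 over 10 spots) and 0.34 in Arp8 OE (SD 0.0514 over 8 usable spots). SYK was therefore lowest in WT, and 0.06 separated the means of Arp8 KO and Arp8 OE. The technical SD of 0.0628 is that between single spots, and the error of a mean over spots is smaller.

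BTK, the Tec family kinase that BLNK recruits, varied least of the members, by 0.12 over the 4 arrays. Its log2 level was 1.78 in WT, 1.90 in Arp8 OE, 1.87 in Arp5 KO and 1.80 in Arp8 KO. Arp8 KO and WT were neighbours that differed by less than the technical SD (0.02 against 0.0394), as were Arp5 KO and Arp8 OE (-0.03 against 0.0380).

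LYN and BLK belong to the Src family and act first at the receptor. The median over the 10 spots of LYN was 2.0 in WT (range 1.93 to 2.07), 1.96 in Arp5 KO (1.90 to 2.04), 1.38 in Arp8 KO (1.32 to 1.46) and 1.72 in Arp8 OE (1.64 to 1.91). The spots of WT and Arp5 KO overlapped and those of Arp8 KO lay below all others. How often other probes printed 10 times separate in this way was not counted. Of the LYN spots, 20% had an adjacent spot bright on 1 array. LYN was 1.55-fold lower in Arp8 KO (-0.63 on the log2 scale, SD 0.0390 over 10 spots). In Arp5 KO the difference was -0.04 (SD 0.0211) and in Arp8 OE it was -0.27 (SD 0.0451).

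BLK had log2 levels of 2.27 in WT, 2.41 in Arp8 OE, 1.79 in Arp5 KO and 1.34 in Arp8 KO. The gene was 1.91-fold lower than WT in Arp8 KO (log2 difference -0.93, technical SD 0.0394) and 1.39-fold lower in Arp5 KO (-0.48, technical SD 0.0392). Against Arp8 OE the Arp8 KO difference was -1.07, past 2-fold. BLK thus followed the order of VPREB3 and VPREB1, whereas LYN was lower in Arp8 KO and less so in Arp8 OE.

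**Figure D2:**
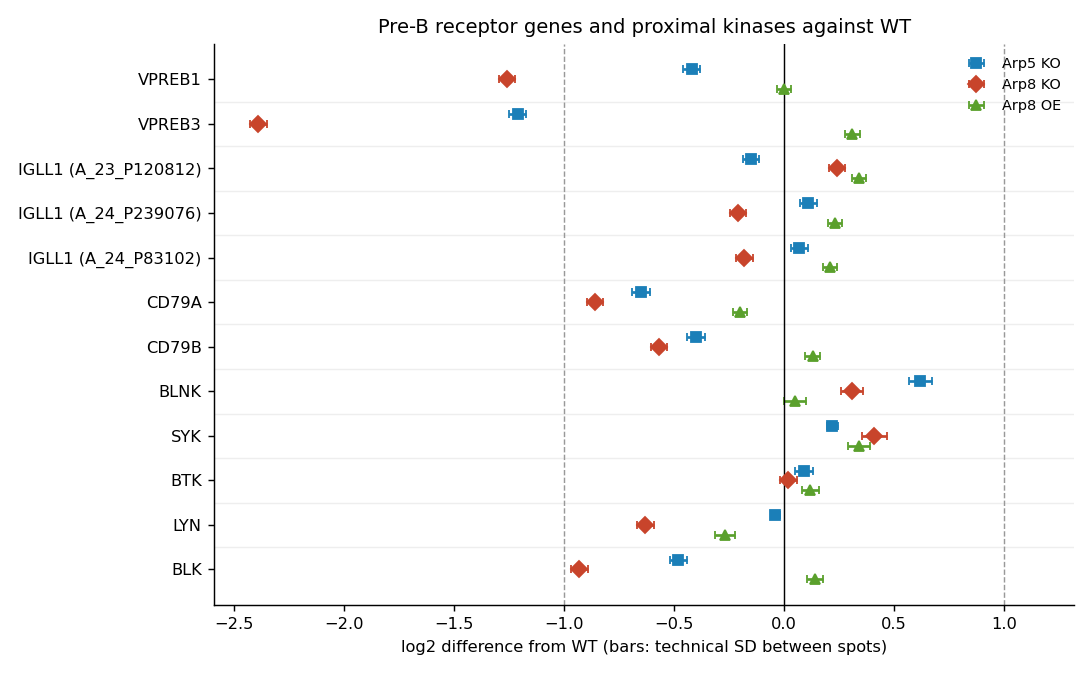
Log2 difference from WT of each member probe (horizontal axis) in each of the 3 other cultures, with bars for the technical SD between spots and dashed lines at 2-fold. VPREB3 is past 2-fold in both knockouts, at -1.21 and -2.39, and VPREB1 in Arp8 KO, at -1.26.

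Counted over the list, 1 of the 12 member probes was past 2-fold lower than WT in Arp5 KO (VPREB3), against 2.01% of the 24285 probes tested. In Arp8 KO there were 2 (VPREB3 and VPREB1), against 4.35% of 24578. None was past 2-fold higher in either knockout (background 1.69% and 3.37%), and none was past 2-fold in Arp8 OE, where 2.15% of 24177 probes were lower and 2.96% were higher. With so few probes, these counts differ from the background by 1 or 2 probes. All 12 probes were well above background on all 4 arrays, so none was lost to the filter on dim probes and none of these differences was a bound. The median over the 10 genes was -0.60 in Arp8 KO, -0.22 in Arp5 KO and 0.13 in Arp8 OE, against 0.01, 0.01 and -0.03 over all genes tested. In Arp5 KO 7 of the probes were below WT, and in Arp8 KO 8 were. By gene these were 6 and 7 of the 10. Of all genes tested, 5845 of 12135 were below WT in Arp5 KO and 5907 of 12200 in Arp8 KO. The median in Arp5 KO was -0.04 when CD79B was left out for its bright neighbour. Leaving out VPREB3, VPREB1, CD79A or BLK instead gives the same value. The middle values of the 10 genes were -0.40 for CD79B and -0.04 for LYN, with a gap between them.

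Both knockouts were compared with the same WT array, so a shared direction in them is partly built in. Arp8 KO and Arp5 KO were therefore also set against each other directly. In this comparison 9 of the 10 genes were lower in Arp8 KO, with a median of -0.26 against 0.01 over all genes tested. Of all genes tested, 5908 of 12154 were lower in Arp8 KO. Only VPREB3 passed 2-fold, where 3.18% of 24440 probes did so in this direction and 2.53% in the other. The order WT and Arp8 OE above Arp5 KO, and Arp5 KO above Arp8 KO, was found for 5 of the 12 probes (VPREB1, VPREB3, CD79A, CD79B and BLK), and for 11.0% of the 21783 probes well above background on all arrays. This order was noticed in the values of the members and is a description.

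**Figure D3:**
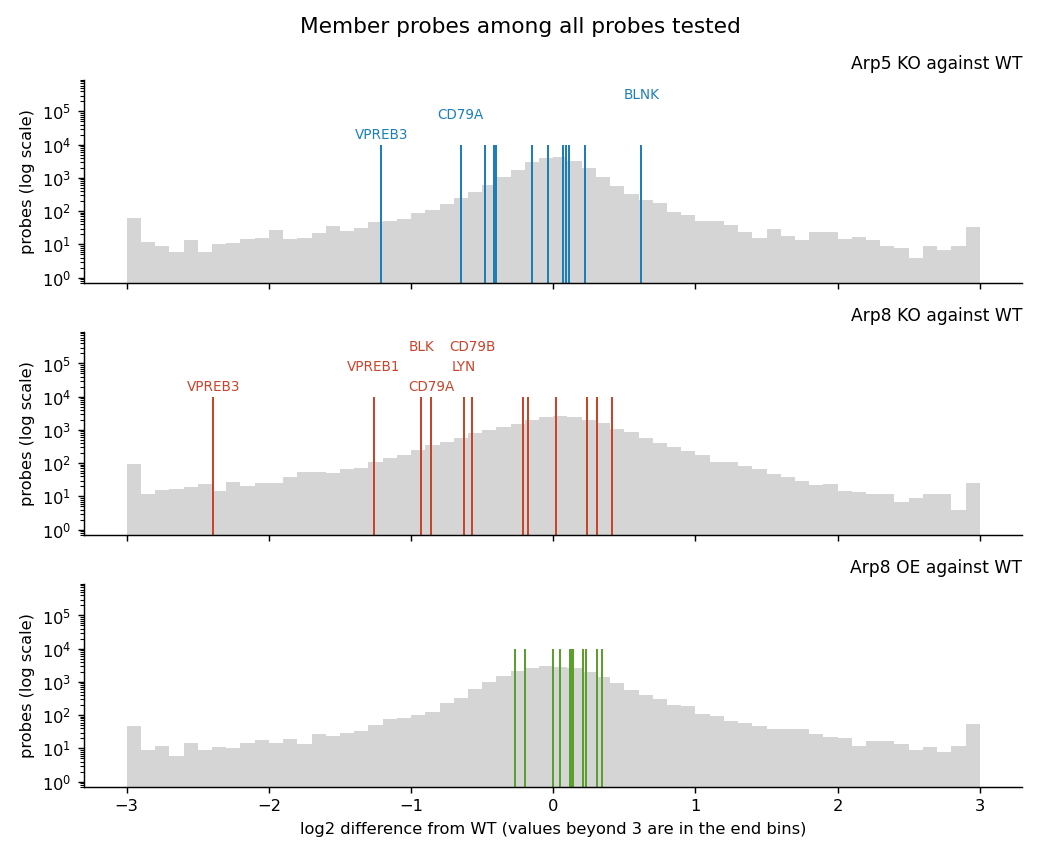
Histograms of the log2 difference from WT over all probes tested (grey, number of probes on a log scale), with a coloured line at each of the 12 member probes, 1 panel per culture. Members more than 0.55 from WT are named, and in Arp8 OE all members lie between -0.27 and 0.34.

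With Arp8 OE as the reference, 1 member probe was past 2-fold lower in Arp5 KO (VPREB3, background 3.28% of 24136) and 3 were in Arp8 KO (VPREB3, VPREB1 and BLK, background 3.78% of 24204). None was past 2-fold higher, where 2.08% and 1.64% of all probes were. The medians over genes were -0.33 and -0.51. Against this reference several small differences of Arp5 KO changed sign. SYK went from 0.22 to -0.12, LYN from -0.04 to 0.24, BTK from 0.09 to -0.03, and the IGLL1 probes A_24_P239076 and A_24_P83102 from 0.11 to -0.11 and from 0.07 to -0.14. In Arp8 KO the first IGLL1 probe went from 0.24 to -0.09 and BTK from 0.02 to -0.10.

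The rest of the receptor pathway was taken from 4 lists with 82 genes, of which 79 had a probe (127 probes). IGHM, CR2 and CD5 were not analysed here. The lists were chosen with earlier results of these data known, so the shares beside the background are descriptions. In Arp5 KO 2 of 102 tested probes were past 2-fold lower (1.96%, background 2.01%) and none was higher. In Arp8 KO 16 of 102 were lower (15.7%, background 4.35%) and 2 were higher (1.96%, background 3.37%). In Arp8 OE 6 of 98 were lower (6.12%, background 2.15%) and 1 was higher (1.02%, background 2.96%). The gene medians of all 4 lists together were 0.01, -0.14 and 0.05 in these cultures. Of the 18 probes past 2-fold in Arp8 KO, 10 remained when probes beside a spot bright on 1 array were left out, and 9 probes were past 2-fold with normexp background correction.

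Among the positive partners, 5 of 33 tested probes were past 2-fold lower in Arp8 KO. LAT2, an adaptor that SYK phosphorylates, was lower on both probes, by -1.32 and -1.54 in Arp8 KO and by -0.57 and -0.67 in Arp5 KO, and lay at -0.06 and -0.09 in Arp8 OE. The brighter probe had 2 adjacent spots bright on WT alone and the other had none. Of VAV2 and DAPP1 each, a probe was well above background on WT alone, with bounds of at least 2.77-fold and 2.06-fold in Arp8 KO, and each had a bright adjacent spot. The VAV2 probe was also past 2-fold in Arp5 KO (at least 2.58-fold) and Arp8 OE (at least 2.17-fold). A dim BCL10 probe was higher in Arp8 KO by 1.64 while the brighter one was at -0.36. PLCG2, the phospholipase that BTK activates, was at -0.68 in Arp8 KO, 0.02 in Arp5 KO and -0.05 in Arp8 OE.

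Among inhibitory receptors and phosphatases, 5 of 30 tested probes were past 2-fold lower in Arp8 KO and none was in Arp5 KO. CD22, a lectin that dampens receptor signals, had log2 levels of 0.06 in WT, -0.67 in Arp8 OE, -0.83 in Arp5 KO and -2.52 in Arp8 KO. Arp8 KO lay 5.99-fold below WT. PTPN6, the phosphatase SHP-1 that CD22 recruits, was at -1.21 in Arp8 KO, 0.25 in Arp5 KO and -0.48 in Arp8 OE. UBASH3B, a phosphatase that acts on SYK, was at -1.44 in Arp8 KO, -0.33 in Arp5 KO and -0.60 in Arp8 OE. SIGLEC10 and FCGR2B, further inhibitory receptors, had bounds of at least 3.02-fold and 2.11-fold lower in Arp8 KO. SIGLEC10 was also at least 2.36-fold lower in Arp8 OE, and the second FCGR2B probe, which had adjacent bright spots, was 1.29 higher there and had a bound of -0.85 in Arp8 KO. INPP5B, an inositol phosphatase, was just short of 2-fold lower in Arp8 KO (-1.0 after rounding), with its other probe at a bound of -0.82. It is not among the 5 probes counted.

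Of the other Src, Tec and Syk family kinases, 2 of 10 tested probes were past 2-fold lower in Arp8 KO. LCK, best known as the Src family kinase of T cells, lay at -0.09 in WT, -0.63 in Arp8 OE, -0.71 in Arp5 KO and -2.60 in Arp8 KO, so that Arp8 KO lay 5.71-fold below WT. The other was an FGR probe that was well above background on WT alone (at least 2.13-fold lower in Arp8 KO), with 2 bright neighbours on WT. ZAP70, the relative of SYK, had differences between -0.20 and 0.08 on its 2 probes.

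Regulators and downstream genes included 4 of 29 tested probes past 2-fold lower and 1 higher in Arp8 KO. BCL6, a repressor that is induced after pre-B receptor signalling, was at -2.74 in Arp8 KO, -0.94 in Arp5 KO and -1.10 in Arp8 OE, with 1 adjacent spot bright on WT and 2 on Arp5 KO. SPIB, a factor that binds GAGGAA sites, was lower in Arp8 KO on both probes, by -2.40 and -1.05, and was at -0.05 and 0.08 in Arp5 KO and at -1.02 and -0.60 in Arp8 OE. An NFATC1 probe was just short of 2-fold lower in Arp8 KO (-1.0 after rounding) and is not among the 4 counted, with the other at -0.25. ID3, an inhibitor of E2A, was higher in Arp8 KO by 1.57 and in Arp5 KO by 0.17, and it had 1 neighbour bright on WT. In Arp8 OE the KLF2 probe that was the brighter of 2 was lower by -1.86, while the other was not past 2-fold. Neither KLF2 probe was past 2-fold in a knockout. IL7R, the interleukin receptor of B-cell precursors, was 3.23-fold lower in Arp8 KO, a log2 difference of -1.69, while Arp5 KO lay at -0.03 and Arp8 OE at -0.85. Of the factors that activate the surrogate light chain genes, EBF1, TCF3 and PAX5 had no probe past 2-fold. EBF1 lay between -0.06 and 0.30 of WT on its 2 probes. TCF3, which encodes E2A, lay between -0.02 and 0.04 on 1 probe. The other TCF3 probe was higher than WT in every other culture, by between 0.27 and 0.47. PAX5 had 1 probe of low level (-2.36 in WT), with differences between -0.08 and 0.09. These are transcript levels, and the part of these factors in the receptor values was not tested.

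**Figure D4:**
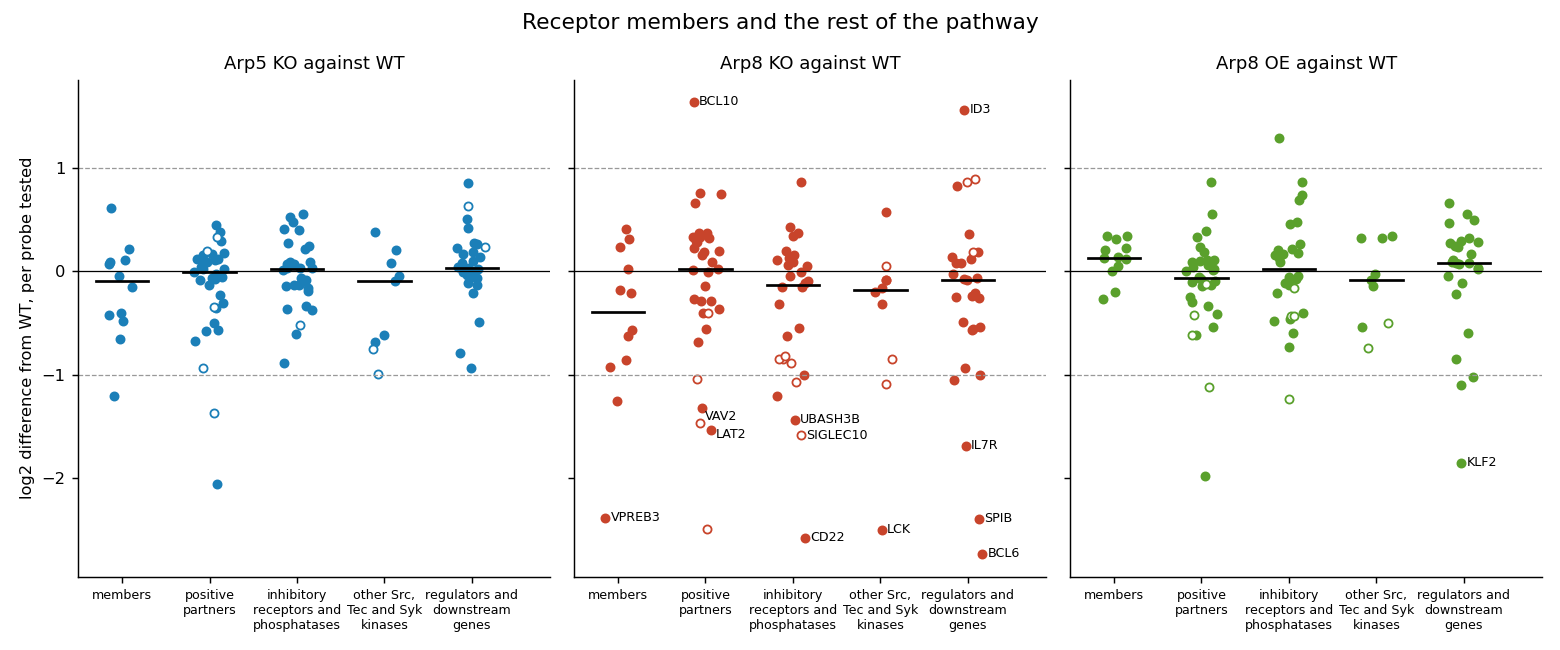
Log2 difference from WT of every probe tested, for the members and the 4 pathway lists, in each culture. Open circles are bounds, for probes that were dim on 1 of the 2 arrays compared, black bars are medians over probes, dashed lines mark 2-fold, and some of the genes past 1.4 are named. In Arp8 KO, VPREB3 is the lowest member, at -2.39, and CD22, LCK, SPIB and BCL6 lie between -2.40 and -2.74.

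Markers of other cells were read beside these values. The summed level of the 5 myeloid markers, in units of the 75th percentile, was 0.50 in WT, 0.665 in Arp8 OE, 0.575 in Arp5 KO and 1.90 in Arp8 KO. CD33 was higher in Arp8 KO by 2.39 and 2.37 on its 2 probes, and LYZ was well above background on Arp8 KO alone. MPO stayed dim on all arrays, and CSF1R was well above background on WT and Arp8 OE alone. Of the 3 mature B cell markers with a probe, MS4A1 was well above background on WT and no other was so on any array. The summed level of the 4 plasma cell markers lay between 5.57 in WT and 9.19 in Arp8 KO, with PRDM1 dim on all arrays. Those of the 3 NK markers and of the 3 fibroblast or epithelial markers with a probe lay between 0.147 and 0.339. Among precursor markers, DNTT was higher than WT by 1.78 in Arp8 KO, 0.84 in Arp5 KO and 1.02 in Arp8 OE. The part of these shifts in the values of the receptor genes was not tested.

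The genes with the nearest pattern to VPREB3 were sought over the 4 arrays, among 16573 probes for 11160 genes that were well above background on all of them. Likeness was the Euclidean distance between the 3 log2 differences from WT. The nearest was GPR18, a G protein-coupled receptor of lymphocytes, at a distance of 0.428, with -2.13 in Arp8 KO, -0.90 in Arp5 KO and 0.44 in Arp8 OE. IL21R, the interleukin-21 receptor, followed at 0.437, with -2.46 in Arp8 KO, -0.78 in Arp5 KO and 0.32 in Arp8 OE. ALOX5AP, the activator of 5-lipoxygenase, came next at 0.487, with -2.05 in Arp8 KO, -1.57 in Arp5 KO and 0.33 in Arp8 OE. Its other probe gave -1.85 in Arp8 KO, -1.51 in Arp5 KO and 0.43 in Arp8 OE. A neighbour bright on a single array lay beside the first of these and beside the MX1 probe. MX1, an interferon-induced GTPase (0.492), and TEX19 (0.493) completed the 5 genes. With 4 arrays such likeness is a description of these cultures.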

How the data were processed

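Total RNA of 4 Nalm-6 cultures was labelled with Cy3 and hybridised to 1 Agilent array each. The authors deposited scanner files from Agilent Feature Extraction 10.10.1.1, whose processed signal is an intensity on a linear scale, background-subtracted and detrended within the array. The 0 or 1 flags for dim, saturated and outlier spots are deposited in the same files. The deposited series matrix holds the same intensity multiplied by a constant for the array (1.99 to 2.29) and was an alternative.

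The 75th percentile over 43376 spots lay between 647.4 and 739.6. The processed signal was divided by that percentile and log2 was taken. Outlier spots were left out (69 to 76 per array, 2 of them of SYK), and no spot was saturated. Spots of a probe were averaged. A probe was tested if at least 50% of its spots were well above background on either array, and a dim probe was raised to the lowest value that any probe well above background had on its array, if it lay under it, which gives a bound. Accessions were named through the RefSeq table of GRCh38.p14 (27204 probes, 66.4%). The file headers name hg19, so no coordinates are given for probes.

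There was no test. Calls are sizes past 2-fold, and percentages of all probes tested are given as background. The technical SD is that of spot-wise differences between 2 arrays for probes printed 10 times (264 probes); for single spots it is the median over the 30 such probes nearest in level. The number of arrays limits the precision. The members, lists and alternatives were chosen with earlier results of these data known. Named genes were all members, pathway genes with a probe past 2-fold (others only where a sentence turns on them, chosen after their values were seen; a few listed genes enter the counts but are not reported here), the targeted genes and the 5 genes nearest to the member with the largest difference. The scaling and counting were tested on simulated data. The alternatives were median scaling, quantile normalization, cyclic loess and normexp with an offset of 50 (limma 3.58.1 in R 4.3.3), the series matrix, 2 other filters, a 4-fold threshold, gene means, Arp8 OE as reference, and leaving out probes with at least 50% of spots beside one, within 20 pixels, whose signal on 1 array was more than 2-fold that on every other array. Normexp used the median spot signal. Python 3.11.15 was used otherwise.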

Additional observations from a re-analysis of the deposited data

How the results depend on the processing

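Of 402 recomputed values, 330 moved by no more than the technical SD or, for counts, by no more than 1.5 times, 72 moved further and none past 2-fold changed sign. Part of the 330 could not move. The series matrix differs by a constant per array, which the scaling removes, and all its 45 values were the same. All member probes were well above background on all arrays, so the 2 other filters could not change their differences. Leaving out probes beside a bright spot could not change those that stayed. VPREB3 stayed between -1.23 and -1.18 in Arp5 KO and between -2.40 and -2.28 in Arp8 KO, and VPREB1 in Arp8 KO between -1.29 and -1.23, over all alternatives but the reference array. With a 4-fold threshold the counts of member probes were 1 in Arp8 KO and 0 in Arp5 KO, and against Arp8 OE the count in Arp8 KO was 3 in place of 2. The other alternatives left these counts as they were. The median over member genes in Arp5 KO was -0.04 without probes beside a bright spot, -0.33 against Arp8 OE and -0.09 over probes in place of genes; in Arp8 KO it was -0.51 against Arp8 OE and -0.39 over probes; in Arp8 OE it was 0.09 with median scaling and 0.09 with normexp. Pathway probes past 2-fold numbered 2 in Arp5 KO, 18 in the Arp8 KO array and 7 in Arp8 OE. They were 0, 9 and 2 with normexp, 8, 30 and 13 without filter and floor, 0, 10 and 3 without probes beside a bright spot, and 1, 5 and 0 at 4-fold. In Arp5 KO there was 1 over probes well above background on both arrays, and in Arp8 KO there were 11 against Arp8 OE. Fewer probes tested, a stricter threshold or the compression of dim signals by the offset are part of these alternatives by construction; for the others the cause was not tested. No paired analysis was possible because each group had 1 array. Differences of dim probes are limited by the signal over background, and those of the members are not.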
